A study of Mus musculus with 15 samples.

Results

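Transcript counts of 32 genes of cholesterol and fatty acid synthesis were compared in whole lungs of 15 mice. The genes were chosen by symbol and comprised 18 enzymes of the sterol branch, 9 enzymes of the fatty acid branch and 5 genes of their regulation and of sterol transport. All 32 symbols were found among the 24054 listed, and all 32 were among the 15905 genes with enough counts to be tested. The mice were female, wild type and of the Balb strain, and their age was not given in the sources used here. In the saline group 5 mice were sham-sensitised with saline and received an isotype control antibody. In the OVA group 5 mice were sensitised to ovalbumin (OVA) by intraperitoneal injection, challenged with OVA aerosol and given the isotype control. In the anti-IL-4Ra group 5 mice received the same allergen and, at 30 mg/kg, a mAb directed against the mouse receptor. The IL-4Ra protein is the chain shared by IL-4 and IL-13, the cytokines of allergic inflammation, so that an antibody which blocks it acts on both. The times of dosing and of tissue collection were not given in the sources used here.

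Cells make cholesterol and fatty acids from cytosolic acetyl-CoA. In the sterol branch, acetyl-CoA is built into mevalonate, isoprenoids, squalene and lanosterol, and lanosterol is trimmed to cholesterol. In the fatty acid branch, acetyl-CoA is carboxylated, polymerised by fatty acid synthase, and then desaturated and elongated. Both branches are driven by the SREBP transcription factors, which are held in the endoplasmic reticulum by INSIG proteins when sterols are plentiful. SREBP-2, from Srebf2, acts mainly on sterol genes, and SREBP-1, from Srebf1, mainly on fatty acid genes. In the lung, alveolar type 2 cells use both branches to make the lipids of surfactant, and fat cells, which lie in the mediastinum beside the lungs, carry high levels of the fatty acid enzymes.

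The promoters of 4 members are shown. Cyp51, Hsd17b7 and Elovl1 are among the called genes described below, and the promoter of Hmgcs1 holds a match to the core of the sterol regulatory element, which SREBP proteins bind. The 4 were chosen after the values were known, and Srebf1, which has 3 windows, is not shown. Each runs from 170 bases before to 30 bases after the start of the transcript, 5′ to 3′ on the gene's strand, from RefSeq on GRCm38.p6. Capitals mark matches to 3 motifs on either strand. They are TCACNCCAC, that core, CCAAT, the box bound by NF-Y, which reads ATTGG on the opposite strand, and CACGTG, an E-box. No match in these 4 windows overlapped another. Elovl1 has 2 windows, and the one not shown held none of the 3 motifs.
Hmgcs1 (chr13:119690181-119690380, plus strand): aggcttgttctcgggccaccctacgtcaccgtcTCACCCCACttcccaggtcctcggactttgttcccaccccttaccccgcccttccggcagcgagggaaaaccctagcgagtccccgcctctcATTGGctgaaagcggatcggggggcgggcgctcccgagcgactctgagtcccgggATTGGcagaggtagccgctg
Cyp51 (chr5:4104668-4104867, minus strand): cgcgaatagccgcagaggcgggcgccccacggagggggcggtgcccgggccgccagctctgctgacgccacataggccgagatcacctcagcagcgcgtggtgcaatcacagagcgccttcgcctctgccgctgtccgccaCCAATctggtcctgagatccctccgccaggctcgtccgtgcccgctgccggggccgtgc
Hsd17b7 (chr1:169969176-169969375, minus strand): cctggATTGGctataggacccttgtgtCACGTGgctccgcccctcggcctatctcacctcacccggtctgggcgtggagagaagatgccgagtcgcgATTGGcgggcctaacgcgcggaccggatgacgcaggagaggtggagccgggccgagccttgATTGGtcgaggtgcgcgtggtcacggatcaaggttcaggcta
Elovl1 (chr4:118427923-118428122, plus strand): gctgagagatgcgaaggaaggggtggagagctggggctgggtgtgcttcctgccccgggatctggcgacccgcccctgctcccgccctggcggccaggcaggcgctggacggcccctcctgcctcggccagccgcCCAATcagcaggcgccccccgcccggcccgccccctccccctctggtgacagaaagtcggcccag
Windows from 250 bases before to 50 after the start were found for 26 of the 32 members and were searched on both strands. TCACNCCAC was in 1 of 26 members, Hmgcs1, where it began at position -137, and in 1.44% of the 27025 genes with a window. CCAAT was in 23 of 26 members (14 of 15 sterol enzymes, 4 of 4 regulators and 5 of 7 fatty acid enzymes) and in 41.1% of all genes. CACGTG was in 5 of 26 members and in 8.09% of all genes. A match describes the letters of the window and is not evidence of binding. Only these letter patterns were searched, so a window without a match is not shown to lack a sterol regulatory element.

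Expected counts, the read counts per gene as RSEM estimates them, summed to 16774285 to 27570666 per saline library, 10042825 to 14706131 per OVA library and 12317805 to 16914475 per anti-IL-4Ra library. Levels are given in CPM, counts scaled to the normalised library total. The defining lung marker Sftpc, the surfactant protein C gene of type 2 cells, was between 1752 and 9327 CPM in every library. Adipose markers differed widely between single libraries. The summed level of 7 markers was 1422 CPM in saline replicate 1 against 27.7 to 232 CPM in the other saline libraries, 315 CPM in OVA replicate 1 against 17.4 to 51.8 CPM, and 640 CPM in anti-IL-4Ra replicate 4 against 12.2 to 66.3 CPM. Adipoq, the fat-cell hormone adiponectin, was at 233, 6.39, 0.101, 13.2 and 34.1 CPM in saline replicates 1 to 5. It was highest in that same replicate 1, and reached 42.3 CPM in OVA replicate 1 and 78.0 CPM in anti-IL-4Ra replicate 4. Results that rest on these 3 libraries are given with and without them. The share of counts on Rn45s, the ribosomal RNA precursor, was 1.19 to 2.88% in the saline libraries, 4.31 to 12.4% in the OVA libraries and 1.65 to 12.4% in the anti-IL-4Ra libraries. The saline and OVA libraries did not overlap on this share, and only anti-IL-4Ra replicate 5 lay within the saline range. A fit with the share as a covariate therefore cannot fully separate it from the group, and a call lost there does not show its cause.

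**Figure D1:**
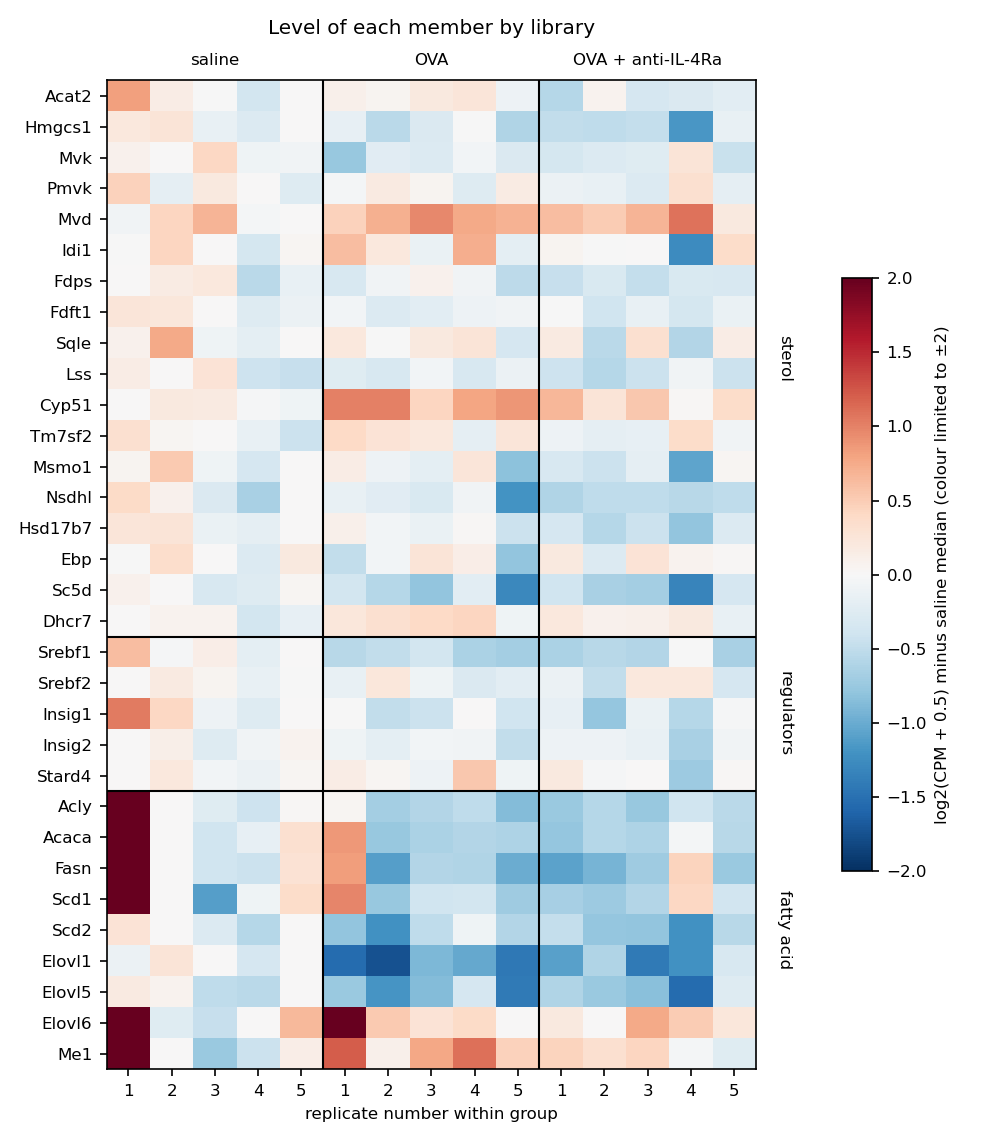
Level of each of the 32 members (rows, grouped by branch) in each of the 15 libraries (columns, by group and replicate), as log2(CPM + 0.5) minus the saline median, with colours limited to ±2. Acly, Acaca, Fasn, Scd1, Elovl6 and Me1 are highest in saline replicate 1, where Fasn reached 6722 CPM, and the row of Cyp51 is higher in all OVA libraries than in any saline library.

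The comparison of OVA with saline asks what the allergen model changed in the 2 branches. In the sterol branch 3 of 18 enzymes rose, the demethylase Cyp51 (1.72-fold), the decarboxylase Mvd (1.43-fold) and the last reductase Dhcr7 (1.27-fold), and none was called lower. The calls of Mvd and Dhcr7, and the lack of a call for Sc5d, changed in other fits given below. In the fatty acid branch 3 of 9 enzymes fell, the elongases Elovl1 (2.41-fold lower) and Elovl5 (1.67-fold lower) and the citrate lyase Acly (2.13-fold lower), and none rose. Of the 5 regulators Srebf1 fell (1.61-fold lower). In whole lung, fewer cells of a type and less RNA per cell cannot be told apart. A gene was called at a Benjamini-Hochberg adjusted p under 0.05 in edgeR's quasi-likelihood test over all genes tested, and adjusted p values below are from this test unless stated. The 7 called members are 21.9% of 32, and 37.1% of all tested genes were called (19.3% higher and 17.8% lower), so the share of members called was not above that of all genes.

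The branches differed in the size of the changes. The median log2 change between OVA and saline was -0.14 over the sterol enzymes (range -0.53 to 0.79), -0.16 over the regulators, -1.27 over the fatty acid enzymes (range -1.60 to -0.12) and 0.02 over all genes tested. The fatty acid median rested on saline replicate 1, the library with the highest adipose level. Without it the median of the fatty acid enzymes was -0.19 and that of the sterol enzymes -0.09, 4 members were called (1 sterol enzyme higher, 1 fatty acid enzyme higher and 1 lower, and Srebf1 lower) and 30.6% of all genes were called. Without all 3 adipose-rich libraries the medians were -0.52 and -0.11, 8 members were called (Cyp51 and Me1 higher; Srebf1, Acly, Acaca, Fasn, Elovl1 and Elovl5 lower) and 27.9% of all genes were called. Cyp51, Srebf1 and Elovl1 were called in each of these 3 fits.

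Each library was also described by its mean log2 level of a branch relative to the saline mean. This mean was between -0.28 and 0.19 over the sterol enzymes in saline libraries, between -0.29 and 0.11 in OVA libraries and between -0.32 and -0.13 in anti-IL-4Ra libraries. Over the fatty acid enzymes it was 1.76 in saline replicate 1 and -0.76 to -0.10 in the other saline libraries, 0.10 in OVA replicate 1 and -1.05 to -0.53 in the other OVA libraries, and -0.83 to -0.64 in the anti-IL-4Ra libraries. The difference of sterol minus fatty acid means was -1.61, 0.48, 0.79, 0.35 and -0.00 in saline replicates 1 to 5. It was -0.08, 1.05, 0.68, 0.64 and 0.69 in the OVA replicates and 0.69, 0.54, 0.65, 0.32 and 0.54 in the anti-IL-4Ra replicates. The groups overlapped on this measure, and saline replicate 1 and OVA replicate 1 were the lowest of their groups.

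The early enzymes of the sterol branch, from acetyl-CoA to squalene, had 1 called gene among 8 between OVA and saline, Mvd. Hmgcs1, which makes HMG-CoA, was at 156, 162, 122, 112 and 135 CPM in saline replicates 1 to 5 and at 120.1, 92.4, 109.6, 134 and 88.4 CPM in OVA replicates 1 to 5. The groups overlapped and the change of -0.33 ± 0.17 (log2 ± SE, n = 5 per group) was not called (adjusted p = 0.14). Mvd, which turns mevalonate diphosphate into the isoprenoid unit, was at 6.62, 9.57, 11.5, 6.75 and 6.96 CPM with saline and 9.78, 11.7, 14.0, 12.1 and 11.6 CPM with OVA. It rose by 0.52 ± 0.19 (adjusted p = 0.0462), although saline replicate 3 lay within the OVA range, and the call was lost in 11 of 15 fits that left out a single library (adjusted p up to 0.137), that without saline replicate 1 among them (0.44 ± 0.20, adjusted p = 0.112). The other early enzymes, Acat2, Mvk, Pmvk, Idi1, Fdps and Fdft1, ranged from -0.39 to 0.25 and none was called. Of these, Mvk, the mevalonate kinase, was farthest below saline, at 13.0 ± 2.06 against 9.91 ± 1.73 CPM (-0.39 ± 0.17, adjusted p = 0.0811).

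Among the enzymes from squalene to cholesterol, Cyp51, the lanosterol demethylase, had the largest change of the branch. It was at 35.6, 41.0, 40.3, 35.0 and 33.7 CPM with saline and 72.2, 72.3, 47.9, 61.8 and 65.7 CPM with OVA. All 5 OVA libraries lay above all 5 saline libraries. Libraries of these groups were apart in this direction for 1926 of 15905 tested genes, and in either direction for 26.6%. The mean of Cyp51 went from 37.1 ± 3.32 to 64.0 ± 10.1 CPM (SD, n = 5), a log2 change of 0.79 ± 0.14 (adjusted p = 0.000571). Leaving out any 1 of the 15 libraries kept the change between 0.74 and 0.82. Dhcr7, the reductase that makes cholesterol from its last precursor, was at 18.5, 19.4, 19.4, 14.3 and 16.5 CPM with saline and 21.8, 23.2, 24.5, 25.2 and 17.4 CPM with OVA. OVA replicate 5 lay within the saline range and the other 4 above it; Dhcr7 rose by 0.35 ± 0.13 (adjusted p = 0.0416), and the call was lost in 12 of 15 fits without a single library (adjusted p up to 0.143).

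Sc5d, the sterol desaturase that acts just before Dhcr7, was at 48.5, 45.5, 36.3, 37.8 and 46.8 CPM with saline and 35.1, 30.5, 26.0, 39.3 and 18.3 CPM with OVA. Its change of -0.53 ± 0.20 lay just outside the threshold (adjusted p = 0.051) and was called in 6 of 15 fits without a single library, so it is given as a value only. Sc5d was called lower with DESeq2 (adjusted p = 0.0334) and limma-voom (adjusted p = 0.0427), but not with a covariate or a replicate block. Mvd and Dhcr7 were not called with other filters on low counts, where Sc5d was called lower. The enzymes between Cyp51 and Sc5d (Tm7sf2, Msmo1, Nsdhl, Hsd17b7 and Ebp), which remove the remaining methyl groups and move the double bond, ranged from -0.29 to 0.25 and were not called. Sqle, the squalene epoxidase, and Lss, the lanosterol synthase, were at -0.08 ± 0.21 and -0.15 ± 0.15. Tm7sf2, a sterol reductase, had the lowest counts of the branch, at 2.44 to 4.48 CPM with saline and 3.01 to 4.77 CPM with OVA.

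**Figure D2:**
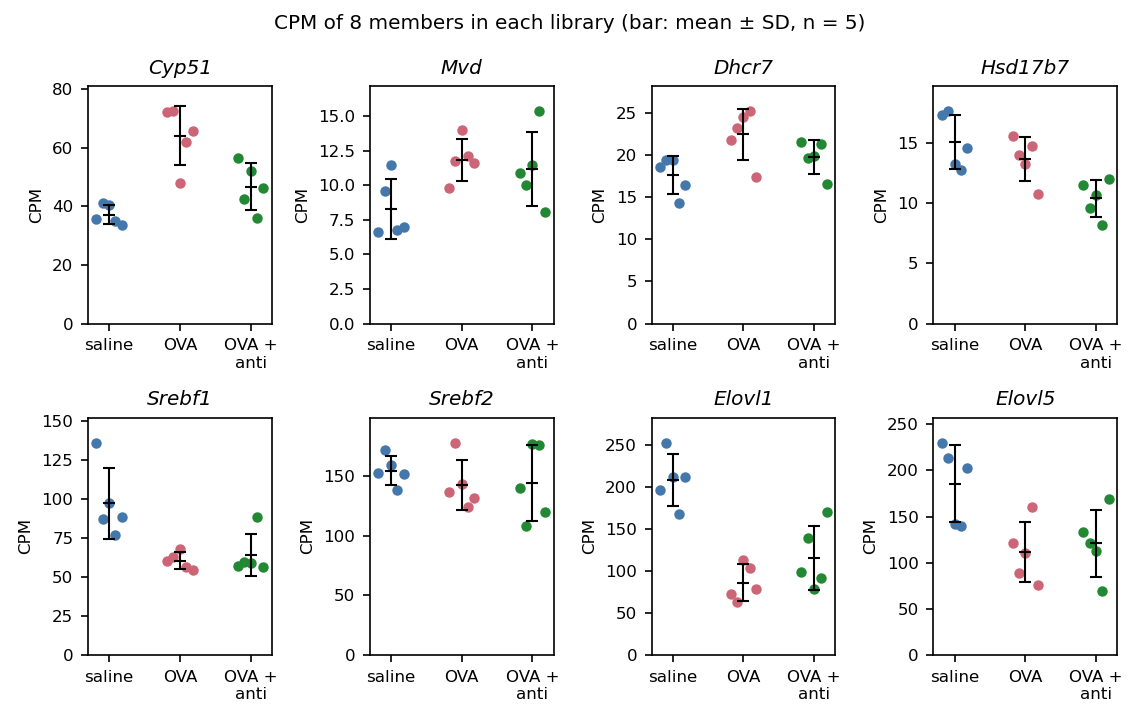
CPM of 8 members in each library of the saline, OVA and anti-IL-4Ra groups (points), with the mean ± SD of 5 libraries (bars). The Cyp51 and Elovl1 panels show OVA points that do not overlap with the saline points, and the Srebf2 panel shows groups that overlap throughout.

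Of the 2 SREBP genes, Srebf1 fell with OVA and Srebf2 was not called. Srebf1 was at 136, 87.4, 97.4, 77.0 and 88.4 CPM with saline and 60.2, 62.8, 68.3, 56.8 and 54.9 CPM with OVA. The groups did not overlap, and the change was -0.68 ± 0.16 (adjusted p = 0.00357) with all libraries, -0.53 without saline replicate 1 (adjusted p = 0.0096) and between -0.78 and -0.53 without any single library. Srebf2 was at 153, 172, 159, 138 and 152 CPM with saline and 137, 178, 143, 124 and 132 CPM with OVA, which overlapped (change -0.12 ± 0.14, adjusted p = 0.543).

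The ratio of Srebf1 to Srebf2 within a library does not depend on how libraries are scaled. Its log2 value was -0.17, -0.98, -0.71, -0.84 and -0.78 in saline replicates 1 to 5 and -1.19, -1.50, -1.07, -1.13 and -1.26 in OVA replicates 1 to 5. All OVA values lay below all saline values. The mean was -0.70 ± 0.31 with saline and -1.23 ± 0.17 with OVA, a difference of -0.53 (two-sided exact permutation test, p = 0.00794, the smallest possible with 5 against 5; adjusted p = 0.0714 over 9 tests), so it did not pass after adjustment. The same ratio was -1.30, -0.85, -1.59, -0.99 and -1.09 in the anti-IL-4Ra replicates, where its mean of -1.17 ± 0.29 differed by 0.06 from that of OVA (exact permutation p = 0.659, adjusted p = 0.893) and by -0.47 from that of saline (exact permutation p = 0.0159, adjusted p = 0.0714). The ratios of Scd1 to Scd2 and of Insig1 to Insig2 differed by -0.37 to -0.02 between groups, with an adjusted exact permutation p of 0.518 or more in all 6 tests.

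Insig1 and Insig2, whose proteins hold SREBP in the endoplasmic reticulum, were not called. Insig1 was at 181, 117, 82.1, 73.9 and 88.0 CPM with saline and 87.8, 62.8, 65.4, 88.8 and 66.9 CPM with OVA, with saline replicate 1 far above the rest (-0.55 ± 0.23, adjusted p = 0.0678). Without that library its change was -0.28 (adjusted p = 0.25). Insig2 went from 38.1 ± 3.89 to 34.1 ± 4.11 CPM (-0.16 ± 0.13) and Stard4, a cholesterol carrier of the cytosol, from 44.2 ± 3.93 to 47.7 ± 9.54 CPM (0.11 ± 0.16).

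The first enzymes of the fatty acid branch depended on saline replicate 1. Acly, which makes cytosolic acetyl-CoA from citrate, was at 1277, 322, 273, 242 and 327 CPM in saline replicates 1 to 5 and 332, 199.6, 213, 226 and 176 CPM in OVA replicates 1 to 5. It fell by 1.09 on the log2 scale (SE 0.38, adjusted p = 0.0335) with all libraries, and without saline replicate 1 its change was -0.35 ± 0.17 (adjusted p = 0.129). The call was also lost without OVA replicate 2 or OVA replicate 5, and without all 3 adipose-rich libraries Acly was called again, at -0.52 (adjusted p = 0.0119). Acaca, the acetyl-CoA carboxylase, was at 1588, 204, 154, 181 and 255 CPM with saline and 372, 120.2, 131, 135 and 133 CPM with OVA. Its change was -1.42 ± 0.58 (adjusted p = 0.0637), -0.16 without saline replicate 1 and -0.61 without the 3 adipose-rich libraries, where it was called (adjusted p = 0.00818).

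Fasn, the fatty acid synthase, was at 6722, 776, 589, 573 and 951 CPM with saline and 1388, 363, 518, 509 and 389 CPM with OVA. Saline replicate 1 lay far above the other saline libraries, and OVA replicate 1 above the other OVA libraries. The change was -1.60 ± 0.66 (adjusted p = 0.0663) with all libraries, -0.19 without saline replicate 1 (adjusted p = 0.742) and -0.70 without the 3 adipose-rich libraries (adjusted p = 0.0171). Scd1, a desaturase that makes oleate and palmitoleate, was at 12251, 1508, 701, 1422 and 1950.5 CPM with saline and 2974, 895, 1149.9, 1164 and 917 CPM with OVA. The same libraries stood apart, and its change was -1.33 ± 0.63 (adjusted p = 0.11) with all libraries and 0.02 without saline replicate 1. The latter fit still held the adipose-rich OVA replicate 1, and Scd1 was not called without all 3 adipose-rich libraries. Scd2, the related desaturase, varied less, from 507 to 913 CPM with saline and 327 to 709 CPM with OVA (-0.51 ± 0.20, adjusted p = 0.0619).

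**Figure D3:**
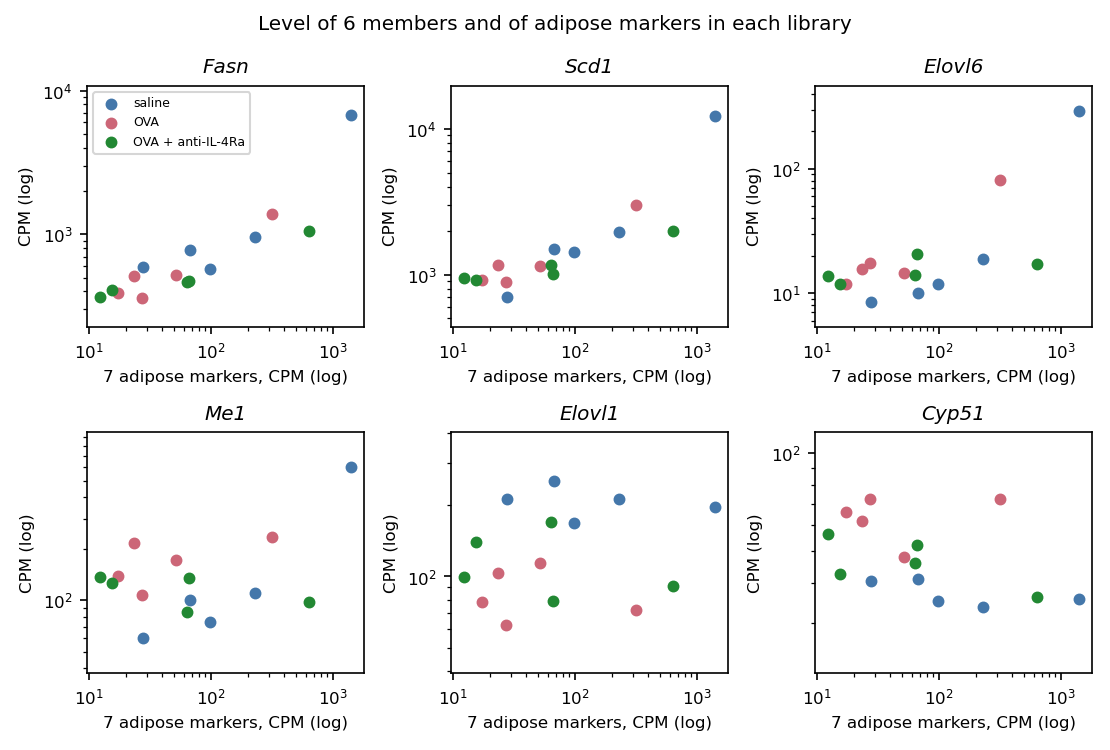
Level of 6 members in each of the 15 libraries (vertical log axes, CPM) against the summed level of 7 adipose markers in the same library (horizontal log axes, CPM), coloured by group. Fasn, Scd1, Elovl6 and Me1 are highest in saline replicate 1, the library with 1422 CPM of adipose markers, and Elovl1 and Cyp51 are not highest there.

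Elovl1, which elongates very long saturated and monounsaturated fatty acids, had the lowest adjusted p of the branch. It was at 196, 251.99, 212, 167 and 212 CPM with saline and 72.2, 62.6, 113, 104 and 78.4 CPM with OVA. Every OVA library lay below every saline library, and the mean went from 208 ± 30.7 to 86.0 ± 21.6 CPM (-1.27 ± 0.21, adjusted p = 0.000462). The change was -1.29 without saline replicate 1 and between -1.44 and -1.18 without any single library. Elovl5, which elongates polyunsaturated fatty acids, was at 229.8, 214, 142, 140.0 and 203 CPM with saline and 121, 89.0, 110.5, 160.0 and 76.0 CPM with OVA. The groups overlapped through OVA replicate 4; Elovl5 fell by 0.74 on the log2 scale (SE 0.23, adjusted p = 0.0221), and the call was lost without saline replicate 1 (-0.65 ± 0.25, adjusted p = 0.0572), OVA replicate 2 or OVA replicate 5.

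The estimated changes of Me1 and Elovl6, not called with all libraries, changed sign when saline replicate 1 was left out. Elovl6 was not called in that fit either. Me1, the malic enzyme that supplies NADPH for fatty acid synthesis, was at 598, 101, 59.9, 74.8 and 110.2 CPM with saline and 234, 108, 172, 216 and 139 CPM with OVA. With all libraries its change was -0.12 ± 0.50 (adjusted p = 0.87). Without saline replicate 1 Me1 was called higher, at 1.01 ± 0.24 (adjusted p = 0.00637), and the remaining saline libraries lay below the OVA libraries except that saline replicate 5 was above OVA replicate 2. Without all 3 adipose-rich libraries Me1 was also called higher (0.88 ± 0.24, adjusted p = 0.0179). Elovl6, which elongates palmitate, was at 290.0, 9.999, 8.53, 11.9 and 18.8 CPM with saline and 81.0, 17.4, 14.4, 15.7 and 11.9 CPM with OVA, and its change was -1.27 ± 0.88 with all libraries and 1.19 ± 0.50 without saline replicate 1 (adjusted p = 0.0815). That fit still held the adipose-rich OVA replicate 1. The remaining OVA libraries, at 11.9 to 17.4 CPM, lay within the 8.53 to 18.8 CPM of the remaining saline libraries. Elovl6 was not called without all 3 adipose-rich libraries.

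Markers of several cell types moved with these changes, and their part in them was not tested. Of 7 adipose markers none was called between OVA and saline, with a median log2 change of -2.49 that became -0.33 without saline replicate 1, and none was at 0 in all libraries of a group. Of 10 type 2 cell markers 6 were lower and 1 higher with OVA, at a summed 15095 to 21382 CPM in saline libraries, 7482 to 16112 CPM in OVA libraries and 8033 to 20222 CPM in anti-IL-4Ra libraries, and none was at 0 in any library. Sftpc itself went from 7696 ± 1378 to 3469 ± 1414 CPM (-1.15 ± 0.37, adjusted p = 0.0232). Without the 3 adipose-rich libraries Sftpc was at -1.16 (adjusted p = 0.0633) and 4 of the 10 type 2 cell markers were called lower. Goblet cell markers, of mucus-making airway cells, were higher in 6 of 6 (median log2 change 4.99, summed level 6.92 to 272 CPM in saline and 2717 to 18560 CPM in OVA libraries). Club cell markers, of secretory airway cells, were lower in 5 of 5 (median -1.70) and markers of the flat type 1 cells in 4 of 5 (median -1.28). Lipofibroblast markers, of lipid-storing fibroblasts, were lower in 4 of 5 and endothelial markers in 6 of 6, and dividing-cell markers were higher in 9 of 10 (summed level 240 to 471 CPM with saline and 724 to 1509 CPM with OVA). Of 8 alveolar macrophage markers 3 rose and 3 fell, and none of 5 cardiac muscle markers was called. With the Rn45s share as a covariate none of the type 2, type 1 and lipofibroblast markers was called, 9 of 10 dividing-cell markers were higher, and 1 member was called, Srebf1 (-0.94, adjusted p = 0.0192), while Cyp51 was at 0.71 (adjusted p = 0.052) and Elovl1 at -0.63 (adjusted p = 0.0722). That fit called 751 of all genes, against 5898 without the covariate, so the loss of calls was not particular to the members.

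**Figure D4:**
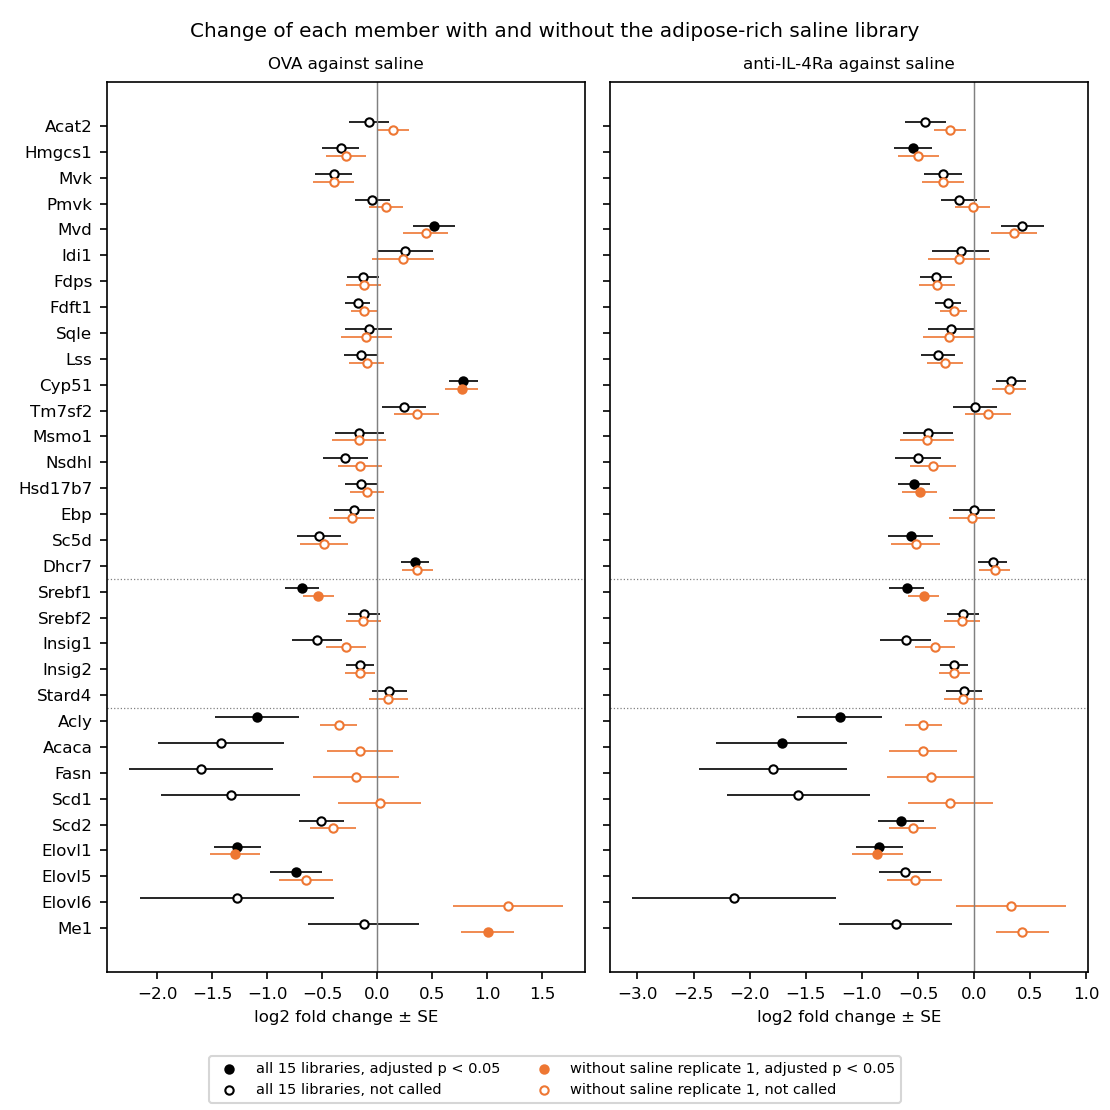
Log2 fold change ± SE of each of the 32 members (rows, sterol enzymes above, then regulators, then fatty acid enzymes) for OVA against saline (left) and anti-IL-4Ra against saline (right), with all 15 libraries (black) and without saline replicate 1 (orange); filled points have an adjusted p under 0.05. The fatty acid enzymes Acly, Acaca, Fasn, Scd1, Elovl6 and Me1 move most when that library is left out, and Elovl1 goes from -1.27 to -1.29.

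The comparison of anti-IL-4Ra with OVA asks what blocking the receptor changed in lungs given the allergen. No member was called by edgeR or limma-voom, nor by DESeq2, which gave no adjusted p for Acly, Acaca, Fasn and Elovl6, and 2 members were lower and none higher at an unadjusted edgeR p under 0.05. The background was also low, with 0.302% of all tested genes called (48 genes). At an unadjusted edgeR p under 0.05, 440 of the 15905 tested genes were higher and 463 lower. The share of members at that threshold was near this background. The median log2 change was -0.20 over the sterol enzymes, -0.02 over the regulators, -0.19 over the fatty acid enzymes and -0.002 over all genes. Cyp51, at 56.5, 42.4, 52.1, 36.1 and 46.1 CPM in anti-IL-4Ra replicates 1 to 5, overlapped with both other groups, and its mean of 46.6 ± 8.02 CPM lay between theirs. Its difference from OVA was -0.46 ± 0.14 (unadjusted p = 0.00387, adjusted p = 0.362), and that of Hsd17b7, the ketosteroid reductase of the demethylation steps, was -0.39 ± 0.15 (unadjusted p = 0.0164, adjusted p = 0.619).

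Among the fatty acid enzymes, Elovl1 was at 99.2, 139, 79.0, 91.0 and 170.2 CPM with anti-IL-4Ra, against 62.6 to 113 CPM with OVA. Anti-IL-4Ra replicates 2 and 5 lay above all OVA libraries and the other 3 within their range (0.43 ± 0.21, adjusted p = 0.929). Fasn was at 368, 408, 474, 1058 and 464 CPM, highest in the adipose-rich replicate 4 (-0.19 ± 0.64 against OVA). Me1 was at 137, 126, 135, 98.1 and 85.2 CPM, with a difference of -0.58 ± 0.51 from OVA. The largest SEs of this comparison, 0.57 to 0.89, belonged to Acaca, Fasn, Scd1 and Elovl6, so large changes in these genes could go uncalled here.

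The comparison of anti-IL-4Ra with saline shares its saline libraries with the comparison of OVA with saline, so the values stand side by side and are not independent of each other. With anti-IL-4Ra 8 of 32 members were lower than with saline (25%) and none was higher, while 26.6% of all tested genes were called (13.9% higher and 12.7% lower). They were 3 of 18 sterol enzymes (Hmgcs1, Hsd17b7 and Sc5d), Srebf1, and 4 of 9 fatty acid enzymes (Acly, Acaca, Scd2 and Elovl1). The median log2 change was -0.26 over the sterol enzymes, -0.18 over the regulators, -1.20 over the fatty acid enzymes and 0.02 over all genes. Without saline replicate 1 the sterol and fatty acid medians were -0.22 and -0.45, 3 members were called (Hsd17b7, Srebf1 and Elovl1) and 20.0% of all genes were called. Without the 3 adipose-rich libraries 5 members were called (Srebf1, Acly, Acaca, Elovl1 and, not called with all libraries, Fasn) and 17.5% of all genes. With the Rn45s share as a covariate 1 member was called, Srebf1 (-0.84, adjusted p = 0.0377). That fit called 373 of all genes, against 4236 without the covariate, so the loss of calls was not particular to the members.

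In the sterol branch, Hsd17b7 was at 17.3, 17.6, 13.2, 12.8 and 14.6 CPM with saline and 11.5, 9.64, 10.7, 8.21 and 12.0 CPM with anti-IL-4Ra, without overlap. The change was -0.54 ± 0.15 (adjusted p = 0.0139) against -0.14 ± 0.14 between OVA and saline; it was called without any single library and was -0.41 (adjusted p = 0.0763) without the 3 adipose-rich libraries and -0.38 (adjusted p = 0.284) with the Rn45s covariate. Sc5d was at 34.4, 28.9, 28.1, 17.8 and 35.9 CPM with anti-IL-4Ra, also below all saline libraries. Libraries of these groups were apart, in either direction, for 19.8% of all tested genes. Sc5d fell by 0.57 on the log2 scale (SE 0.20, adjusted p = 0.0478) against saline, and the call was lost in 9 of 15 fits without a single library (adjusted p up to 0.102). Hmgcs1 was at 96.0, 95.0, 97.1, 60.0 and 122 CPM, lowest in replicate 4, and its change of -0.55 ± 0.17 (adjusted p = 0.0282) was lost as a call without saline replicate 1 (-0.50, adjusted p = 0.0681), saline replicate 2, saline replicate 5 or anti-IL-4Ra replicate 3. Cyp51, called higher with OVA, was at 0.33 ± 0.14 here (adjusted p = 0.0814), and Mvd and Dhcr7 were at 0.43 ± 0.19 and 0.17 ± 0.13, none of them called.

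Srebf1 was at 56.9, 60.0, 58.8, 88.4 and 56.5 CPM with anti-IL-4Ra. Replicate 4, the adipose-rich library, lay within the saline range and the other 4 below it, and the change from saline was -0.60 ± 0.16 (adjusted p = 0.0115), or -0.45 (adjusted p = 0.0328) without saline replicate 1. Elovl1 overlapped with saline through anti-IL-4Ra replicate 5, and its change was -0.84 ± 0.21 (adjusted p = 0.0092), or -0.87 (adjusted p = 0.0172) without saline replicate 1 and -0.31 (adjusted p = 0.361) with the Rn45s covariate. Acaca, at 119, 136, 133, 199 and 138 CPM, was at -1.72 ± 0.58 against saline (adjusted p = 0.0393) and at -0.45 (adjusted p = 0.307) without that library. Acly moved from -1.20 ± 0.38 (adjusted p = 0.0296) to -0.45 (adjusted p = 0.0699) and Scd2 from -0.65 ± 0.20 (adjusted p = 0.028) to -0.55 (adjusted p = 0.078) when it was left out. Of the type 2 cell markers 4 of 10 were lower and 1 higher in this comparison, with 3 lower without saline replicate 1, 1 lower without the 3 adipose-rich libraries and none called with the Rn45s covariate, and none of the 7 adipose markers was called.

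Other genes around the 2 branches were listed by pathway, and their counts stand beside the 37.1% of all tested genes called between OVA and saline, 19.3% higher and 17.8% lower. No list was tested as a whole. Of 5 genes of SREBP processing 2 fell with OVA, Scap, which escorts SREBP to the Golgi (-0.36 ± 0.12, adjusted p = 0.0299), and Mbtps1, the protease that makes the initial cut there (-0.32 ± 0.10, adjusted p = 0.0179). Scap was not called without saline replicate 1 (adjusted p = 0.055) but was without the 3 adipose-rich libraries (adjusted p = 0.0405), and Mbtps1 was not called without those 3 (adjusted p = 0.0809). Of 10 genes of the liver X receptors and sterol efflux 1 rose and 4 fell. The riser was Ch25h, which makes 25-hydroxycholesterol, an oxysterol that holds SREBP back, at 1.36, 1.86, 1.62, 1.47 and 1.40 CPM with saline and 8.18, 8.43, 7.23, 12.4 and 5.13 CPM with OVA (2.42 ± 0.26, adjusted p = 1.93e-05). Nr1h3 and Nr1h2, the 2 liver X receptor genes, fell, with log2 changes of -0.72 and -0.53, as did Abcg1, a sterol exporter, with -0.60 (adjusted p = 0.00276, 0.00976 and 0.0025). Cyp7b1, a hydroxylase of oxysterols, rose (0.91 ± 0.23, adjusted p = 0.00653) and Cyp27a1, which makes 27-hydroxycholesterol, fell (-0.64 ± 0.17, adjusted p = 0.00961), among 4 genes of other sterol routes.

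Of 19 tested genes of other fatty acid and glycerolipid steps 7 fell with OVA and none rose (median log2 change -0.64, or -0.23 without saline replicate 1, where 6 fell). They included Acss2, which makes acetyl-CoA from acetate (-0.82 ± 0.25), Mid1ip1, an activator of acetyl-CoA carboxylase (-0.78 ± 0.17), Tecr, the last enzyme of the elongation cycle (-0.64 ± 0.18), and the desaturase Fads2 (-0.55 ± 0.17). Mid1ip1 was at -0.77 and Acss2 at -0.43 without saline replicate 1, and both were still called. Tecr (adjusted p = 0.064) and Fads2 (adjusted p = 0.0897) were not called without the 3 adipose-rich libraries. Of 10 genes of fatty acid oxidation 4 fell (median -0.36), among them their regulator Ppara (-0.84 ± 0.21, adjusted p = 0.00617) and the dehydrogenases Acadm (-0.65 ± 0.20) and Acadvl (-0.61 ± 0.17); 2 fell without saline replicate 1, where Acadm was not called (adjusted p = 0.0507), and 3 fell without the 3 adipose-rich libraries, where Acadm was called (adjusted p = 0.0254). Of 4 genes of surfactant phospholipid synthesis 3 fell, with Lpcat1, an acyltransferase of type 2 cells, going from 196 ± 28.1 to 82.9 ± 13.7 CPM (-1.24 ± 0.16, adjusted p = 8.45e-05), Chpt1 at -1.08 ± 0.38 and Pcyt1a at -0.60 ± 0.13; Chpt1 was not called without saline replicate 1 (adjusted p = 0.166) but was without the 3 adipose-rich libraries (adjusted p = 0.0384). With the Rn45s covariate 1 gene each of SREBP processing, of other fatty acid steps and of surfactant phospholipid synthesis was called lower. None was called lower among the genes of liver X receptors and sterol efflux, other sterol routes or oxidation. That fit called 751 genes in all.

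Between anti-IL-4Ra and OVA no gene of these 6 lists was called. Between anti-IL-4Ra and saline Ch25h (1.83 ± 0.25) and Cyp7b1 (1.27 ± 0.23) were higher. Lower genes were 1 of SREBP processing (Mbtps1), 1 of the list of liver X receptors and sterol efflux (Lpcat3), 1 of other sterol routes (Cyp27a1), 6 of 19 of other fatty acid and glycerolipid steps, 3 of 10 of oxidation and 2 of 4 of surfactant phospholipid synthesis, while 26.6% of all tested genes were called, 13.9% higher and 12.7% lower. Without saline replicate 1 the calls of Mbtps1 (adjusted p = 0.101), Lpcat3 (adjusted p = 0.082) and Cyp27a1 (adjusted p = 0.0791) were lost, and 3 of 19, 2 of 10 and 1 of 4 genes of the last 3 lists were lower. Without the 3 adipose-rich libraries Cyp27a1 was called (adjusted p = 0.0259) and Mbtps1 and Lpcat3 were not (adjusted p = 0.0632 and 0.141). Nr1h2, of the list of liver X receptors and sterol efflux and not called with all libraries, was lower in that fit (-0.52, adjusted p = 0.0172). Of the last 3 lists 3 of 19, 1 of 10 and 1 of 4 were lower there. With the Rn45s covariate no gene of the 6 lists was called lower, in a fit that called 373 genes in all. Lpcat1 was at -0.95 ± 0.16 (adjusted p = 0.000937) in this comparison.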

How the data were processed

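RNA sequencing of whole mouse lung was available for 15 libraries, 5 in each of 3 groups, and the labels call the replicates biological. The authors deposited expected counts per gene symbol with no normalisation. The submitters' processing notes name RSEM 1.2.15 and Bowtie2 2.1.0, and they name the human build hg38 although the symbols are those of mouse genes, so no coordinate was taken from the files. The annotation was not given in the sources used here. Both ribosomal RNA depletion and oligo-dT selection are named per the labels' protocols, so how Rn45s entered the libraries is not known.

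Expected counts were rounded to whole numbers. Between 16.97 and 19.96% of the values of a library were not whole at a tolerance of 0.005, as RSEM divides reads shared by similar genes. Members with close relatives (Scd1 and Scd2, the Elovl genes) may hold partly estimated counts, which was not examined gene by gene. Genes were kept by filterByExpr and scaled by TMM, and 15905 genes in all 15 libraries were fitted with edgeR 4.0.16 (R 4.3.3) by the quasi-likelihood test without covariates, with Benjamini-Hochberg adjustment over those genes and a threshold of 0.05. SEs of log2 fold changes were derived from the F statistic. CPM values use TMM-scaled totals, and means of a branch use log2(CPM + 0.5). Ratios of gene pairs were compared with exact permutation tests in scipy 1.17.1. A total of 3 counts is the smallest level that depth can set apart from 0, and every member was above it. All replicate pairs of a group differed by more than sampling noise (lowest chi-square per degree of freedom 10.01). The scripts were tested on simulated data.

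All 32 members are named. Of the other pathway lists, called genes with the largest absolute log2 change, up to 4 a list and comparison, are named, with Adipoq and Sftpc. The members and lists were chosen with earlier results of these data known. Alternatives used DESeq2 1.42.0 and limma-voom (limma 3.58.1), other scaling and filters, covariates, a replicate block and fits without single libraries. Promoters came from RefSeq (GRCm38.p6) by symbol. Windows for Fdps, Fdft1, Sqle, Stard4, Scd1 and Scd2 were not used here.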

Additional observations from a re-analysis of the deposited data

Results flagged for a closer look

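The highest or lowest library of a group stood apart from the other 4 by Dixon's test for 21 of 96 combinations of member and group, and for 26 of 108 once summed levels were included. Chance gives about 1 such flag in 20 groups. Of the member flags 6 came from saline replicate 1, 4 from OVA replicate 1, 9 from anti-IL-4Ra replicate 4, and 1 each from saline replicate 2 and OVA replicate 5. All values are CPM unless stated.

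In saline replicate 1, Acly was at 1277, Acaca at 1588, Fasn at 6722, Scd1 at 12251, Elovl6 at 290.0 and Me1 at 598, each far above the other saline libraries. The adipose markers of that library summed to 1422 and the mean log2 level of its fatty acid enzymes lay 1.76 above the saline mean. In OVA replicate 1, Acaca was at 372, Fasn at 1388, Scd1 at 2974 and Elovl6 at 81.0, with adipose markers at a sum of 315. Elovl1, Elovl5 and Scd2 were not set apart in any group.

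Anti-IL-4Ra replicate 4 was high for Mvk (14.9), Pmvk (19.5), Lss (23.8), Tm7sf2 (4.64), Srebf1 (88.4), Acaca (199), Fasn (1058) and Scd1 (2001), and low for Insig2 (24.4), with adipose markers at a sum of 640. This library alone had several flagged sterol enzymes. Its mean log2 level of all sterol enzymes was nonetheless the lowest of the 15 libraries, at -0.32 relative to the saline mean. Hmgcs1, Cyp51, Hsd17b7 and Sc5d were lowest of their group there, without being flagged. Sqle was high in saline replicate 2, at 62.3. OVA replicate 5 was low for Nsdhl, at 9.23, and its mean log2 level of the sterol enzymes was the lowest of the OVA group, at -0.29 relative to the saline mean. The cause of these values was not tested.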

How the results depend on the processing

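Alternatives without the 3 adipose-rich libraries, and with an adipose covariate but no saline replicate 1, were chosen after seeing the data. The cause of the moves below was not tested. Counts below are all members called in a fit, which need not be the same genes. The number of all genes called also differed between fits, so these counts are not results about the members alone. Between OVA and saline 37.1% of all genes were called with all libraries, 30.6% without saline replicate 1 and 30.2% without OVA replicate 1. Between anti-IL-4Ra and saline the shares were 26.6% with all libraries, 20.0% without saline replicate 1 and 17.5% without the 3 adipose-rich libraries. Between OVA and saline, with 7 members called in all libraries, 1 was called with the Rn45s covariate and 4 with the adipose covariate, and fits without a single library called 3 (without OVA replicate 2) to 11 (without saline replicate 3 or anti-IL-4Ra replicate 4), and 4 without saline replicate 1 or OVA replicate 5. Between anti-IL-4Ra and saline, with 8 called in all libraries, the counts were 1 with the Rn45s covariate, 5 with the adipose covariate, 5 without the 3 adipose-rich libraries, 3 with the adipose covariate and no saline replicate 1, and 3 (without saline replicate 1 or anti-IL-4Ra replicate 3) to 13 (without saline replicate 4) without a single library, with 5 without saline replicate 5. Between OVA and saline Me1 reversed to 0.88 without the 3 adipose-rich libraries, and Me1 and Elovl6 to 1.04 and 1.22 with the adipose covariate and no saline replicate 1; without a single library Me1 ranged from -0.35 to 1.01. Over all genes, the Rn45s covariate left 751 calls between OVA and saline, against 5898 without it (64.7% of the 751 higher). Between anti-IL-4Ra and saline it left 373 calls, against 4236 (86.3% of the 373 higher). That last comparison had 2780 calls without the 3 adipose-rich libraries. DESeq2 made 128 calls between anti-IL-4Ra and OVA, against 48. Upper-quartile scaling raised the share of higher calls between OVA and saline from 52% to 59.4%. Members that were not called changed sign in up to 10 cases, between anti-IL-4Ra and OVA without the 3 adipose-rich libraries. No pair ratio passed after adjustment under any alternative run. This adds little to the main result. With the replicate block the exact test cannot give a p under 0.05, and leaving out libraries raises its smallest possible p.

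Replicate numbers did not pair the libraries, as same-numbered libraries had correlations of -0.584 to 0.365. With the replicate number as a block, 3 members were called between OVA and saline, 0 between anti-IL-4Ra and OVA and 3 between anti-IL-4Ra and saline, and 26 genes in all between anti-IL-4Ra and OVA.

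The member with the lowest counts was Tm7sf2, at most 4.77 CPM in any library. With 5 libraries a group, a change that was not called is not shown to be absent.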
